A study of Mus musculus with 2 samples.

Results

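Rab proteins are small GTPases that mark the membranes of a cell and direct vesicles between them. The genes described here are those whose symbol in the array's annotation is Rab followed by a number and at most 1 letter from a to d, without the proteins that regulate or bind Rabs. The rule found 71 probes for 54 genes, of 29922 gene probes for 16637 genes on the array. Messenger RNA was measured in embryonic fibroblasts of the mouse, labelled as Xbp1 knockout, with 1 sample and 1 array on day 0 of induced adipogenesis and 1 of each on day 3. On day 0 the cells were confluent, and treatment with 10 µg/ml insulin, 5 µM troglitazone, 5 µM DXM and 0.25 mM IBMX then lasted 72 h. Troglitazone activates PPARγ, and IBMX blocks the breakdown of cAMP. Both samples carry the knockout, so all differences lie within Xbp1-deficient cells, and no sample with the intact gene was analysed here. No source used here says whether the cells were a clone or a pool. The design asks how expression on day 3 stood against day 0.

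A Rab alternates between a GTP-bound form, which recruits effector proteins to a membrane, and a GDP-bound form, which is extracted into the cytosol. Exchange factors load GTP, GTPase activating proteins speed its hydrolysis, and prenyl groups on the C-terminus hold the protein in the membrane. In fat cells, Rab10 is known for carrying the glucose transporter GLUT4 to the plasma membrane in response to insulin, and Rab18 for its presence on lipid droplets.

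Signals are background-subtracted fluorescence intensities after quantile normalization between the arrays, and differences are log2 of day 3 minus log2 of day 0. A gene was called detected where its brightest probe, which stands for the gene, read over 122 on at least 1 day. That threshold is the median signal of all gene probes. With 1 array per day no test was possible, and no p-value is given. The scatter between repeated control spots on an array, before normalization, gave a technical SD of a difference. Control features without scatter were left out. The median over the control features was 0.42 at log2 signals between 6 and 8 and 0.44 between 8 and 10. It was 0.39 between 10 and 12, and 0.36 between 12 and 16. Pooled over the features, the SD was 0.61, 0.78, 0.57 and 0.85 in the same order. The repeat-spot SD named below, or SD alone, is the median. Both the median and the pooled SD leave out variation between cultures and hybridizations. Raw gene probe intensities had a median of 78 on day 0 and 166 on day 3, so the common scale matters for the direction of small differences. All 14 fibroblast markers were detected on both days, whereas 4 of 10 adipocyte markers were detected. The summed signal of the adipocyte markers went from 9508.5 on day 0 to 60336.5 on day 3, nearly all of it from the lipase gene Lpl (8480 and 59293), while Fabp4 (10.5 and 59.5) and Adipoq (12 and 120.5) stayed under the threshold. The other detected adipocyte markers were Pparg (608 and 372.5, -0.71), Cebpa (207.5 and 199, -0.06) and Slc2a4 (135.5 and 173, 0.35). The summed signal of the macrophage and leukocyte markers went from 17292 to 43605.5, mostly from Cd14 (16036 and 39698.5) and Itgam (703.5 and 3556). The defining markers Ptprc (-0.5 and 1.5) and Adgre1 (4.5 and 10.5) were near 0. Csf1r went the other way, at 269.5 and 51.5 or at least 2.21-fold lower, and Cd68 read 198.5 and 268. Lyz2 (66 and 13.5) and Tyrobp (14 and 6) stayed under the threshold. The part of either shift in the Rab differences was not tested. Of the markers of other cell types, 4 of 8 for macrophages and leukocytes, 2 of 5 for endothelium, 2 of 6 for epithelium, 5 of 7 for neural cells, 1 of 6 for melanocytes and 0 of 6 for skeletal muscle were detected. The probe for Xbp1 (mMC022331) read 20936 on day 0 and 13561 on day 3, and with no source used here placing it relative to the deleted part, it does not check the label.

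Most Rab genes differed little between the days. Of the 54, 45 were detected, 41 of them on both days, and 9 were under the threshold each day. Among the 45, 3 were at least 2-fold higher on day 3, namely Rab3a, Rab3d and Rab9, or 6.67%, against 12.8% of all 10656 detected genes. At least 2-fold lower as read were 2, Rab32 and Rab27b, or 4.44%, against 10.3% of all detected genes. Counts of 2-fold genes here and below use the signals as read, also where 1 day is under the threshold. With dim signals raised to the threshold, Rab27b was no longer 2-fold lower and Rab32 was, against 8.51% of all. At 1.5-fold, 7 were higher (24.1% of all detected genes were) and 8 lower (21.0% of all). The other 30 Rab genes, or 66.7%, differed by less than 1.5-fold, against 54.9% of all. Among the 29 Rab genes whose mean signal exceeded the median of detected genes, 20 or 69.0% differed by less than 1.5-fold, against 63.2% of all genes in that brighter range. The median difference was -0.02, beside 0.03 over all detected genes, with 21 Rab genes above 0 and 24 below. The difference of 22 of the 45 was no larger than the repeat-spot SD (48.9%, against 40.5% of all detected genes), and that of 35 was no larger than the pooled SD (77.8%, against 61.0% of all detected genes). The 2-fold differences of Rab32, Rab3a and Rab3d held in the main setting and in each of 11 alternatives tried. Each of these 3 genes has 1 probe, which lay above the threshold on both days. The alternatives on probe choice, detection and threshold therefore could not change their values. The 2-fold differences of Rab9 and Rab27b rested on the probe or the threshold, as described with each gene.

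**Figure D1:**
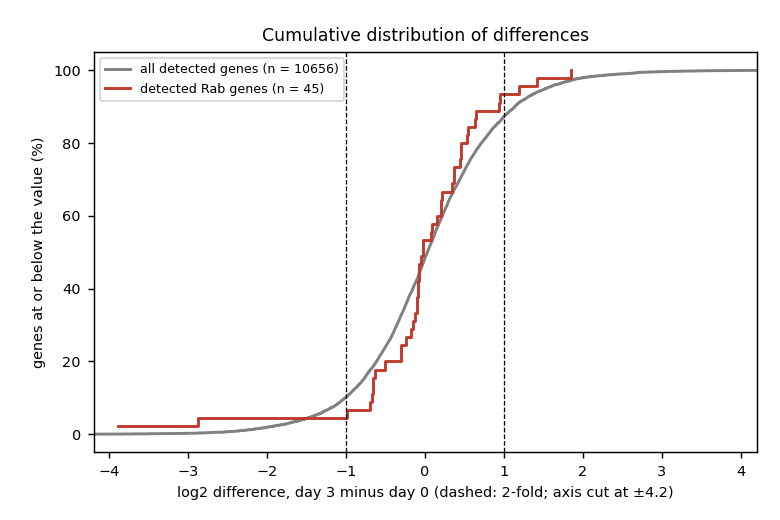
Cumulative share of genes (percent) against the log2 difference between day 3 and day 0, for the 45 detected Rab genes and for all 10656 detected genes. The Rab curve is the steeper around 0, with 66.7% of its genes under 1.5-fold against 54.9%. Among genes whose mean signal exceeded the median of detected genes, the shares were 69.0% and 63.2%. The Rab curve has a lower tail made of Rab32 and, as read, Rab27b.

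**Figure D2:**
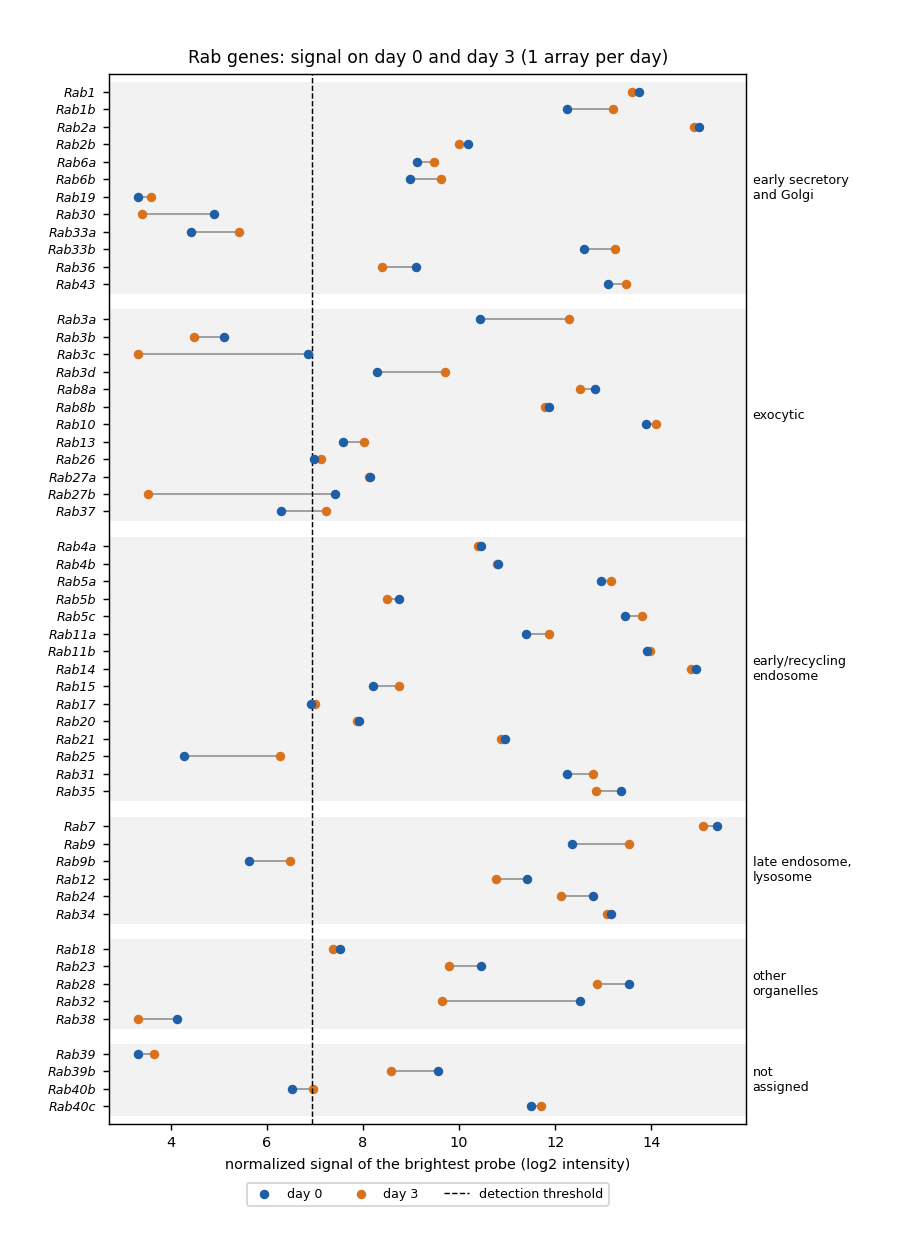
Normalized signal (log2 intensity) of the brightest probe of each of the 54 Rab genes on day 0 and day 3, grouped by role, 1 array per day. The points of 9 genes lie left of the detection threshold on both days, and the longest line between detected points belongs to Rab32.

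The promoters of the 3 genes whose 2-fold difference held in every setting are printed to show what lies at their starts. RefSeq windows from 250 bases before to 50 after a gene start (GRCm38.p6) were matched by symbol for 44 of the 54 genes, in 56 windows of 300 bases. Rab promoters were rich in G and C, with a median of 61.2% against 52.7% over all 32851 windows. The GC box (GGGCGG on either strand), the binding motif of SP1-type factors, was in 38 of the 56 (67.9%, against 35.7% of all), and the CCAAT box (CCAAT on either strand) in 24 (42.9%, against 37.4%). In the 3 sequences below, capitals mark these motifs. The Rab32 window (chr10:10558158-10558457, minus strand) holds neither, the Rab3a window (chr8:70754453-70754752, plus strand) holds 2 GC boxes and 2 CCAAT boxes, and the Rab3d window (chr9:21918134-21918433, minus strand) holds 3 GC boxes.
Rab32: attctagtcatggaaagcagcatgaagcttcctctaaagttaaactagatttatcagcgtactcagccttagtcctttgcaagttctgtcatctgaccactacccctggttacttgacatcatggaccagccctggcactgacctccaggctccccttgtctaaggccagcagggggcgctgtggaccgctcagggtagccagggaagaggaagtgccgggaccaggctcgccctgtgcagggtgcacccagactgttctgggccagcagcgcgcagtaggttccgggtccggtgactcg
Rab3a: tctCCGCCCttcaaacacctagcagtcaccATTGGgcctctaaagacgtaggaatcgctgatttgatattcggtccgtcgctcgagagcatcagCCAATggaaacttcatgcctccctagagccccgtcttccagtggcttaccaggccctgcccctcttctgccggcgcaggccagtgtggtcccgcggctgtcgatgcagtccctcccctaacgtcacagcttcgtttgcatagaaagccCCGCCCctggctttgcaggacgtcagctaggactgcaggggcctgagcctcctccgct
Rab3d: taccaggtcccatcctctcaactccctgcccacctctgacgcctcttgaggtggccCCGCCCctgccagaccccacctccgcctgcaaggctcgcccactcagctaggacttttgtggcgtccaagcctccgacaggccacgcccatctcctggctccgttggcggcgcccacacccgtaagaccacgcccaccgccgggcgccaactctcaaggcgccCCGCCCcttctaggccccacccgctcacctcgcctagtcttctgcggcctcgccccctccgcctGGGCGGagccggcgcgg

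The full cAMP response element, the unfolded protein response element, the TATA box and the CLEAR core were each in few Rab windows. A full PPAR response element and a full ER stress element were also searched, and their counts are not given. The cAMP response element (TGACGTCA, its own reverse complement) was in 2 of 56 (3.57%, against 1.79% of all windows), those of Rab5a and Rab25. Its first letters alone (TGACG on either strand) were in 25 (44.6%, against 20.8%), so that count depends on the form searched. The unfolded protein response element bound by XBP1 (TGACGTGG on either strand, which shares its first letters with the cAMP response element) was in 0 of 56 Rab windows and in 0.676% of all. Its shorter form without the first T (GACGTGG on either strand) was in 3 Rab windows (5.36%, against 2.42%), so the count of 0 depends on the form searched. The TATA box (TATAAA on either strand) was in 3 Rab windows (5.36%, against 13.6%), those of Rab39b, Rab3b and Rab7. The core of the CLEAR element (TCACGTGA, its own reverse complement), through which TFEB acts on lysosomal genes, was in 3 Rab windows (5.36%, against 0.974%), and those sites are shown in capitals with 11 bases on each side.
Rab5a: acccggggatgTCACGTGActtcggccccg
Rab21: gcccaccgcggTCACGTGAcgaggggtgtg
Rab24: cggcgcccgcgTCACGTGAccgggcgtccc
These lie at chr17:53479127-53479156 (plus strand), chr10:115315604-115315633 (minus strand) and chr13:55321961-55321990 (minus strand). The 3 genes did not move together: their differences were 0.22 for Rab5a, -0.08 for Rab21 and -0.66 for Rab24. In all, 17 motif forms were searched in these windows, and 7 are described besides TGACG and its reverse complement. The forms described were chosen after their matches were seen, the CLEAR core among them. Its searched form was shortened after a longer form had matched in the same 3 genes. A share above that of all windows is therefore no support for a link to the Rabs. A match to these letters is a description of the window and no evidence that a factor bound there.

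Rabs of the early secretory pathway and the Golgi had a median difference of 0.34 over 9 detected genes of 12. Of the 9, 0 reached 2-fold in either direction, where 12.8% of all detected genes were 2-fold higher and 10.3% lower. Rab1b acts between the ER and the Golgi, and so does Rab1a. The array's symbol Rab1 is listed in the gene table as a synonym both of Rab1a and of a gene that is no Rab, Rnase4, so which gene that probe reads is uncertain. Rab1b (probe mMC003226, gene at chr19:5099207-5106996) read 4882 on day 0 and 9456.5 on day 3, a difference of 0.95 that exceeded its repeat-spot SD of 0.36 and, narrowly, the pooled 0.85. Its raw intensities were 4184 and 10752. The probe listed as Rab1 read 13754 and 12331.5 (-0.16), within the repeat-spot SD. Rab2a, which also acts on membranes between the ER and the Golgi, read 32335 and 30348 (-0.09), and its paralog Rab2b read 1158.5 and 1019.5 (-0.18), so both stayed within the error.

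The other detected members lay on both sides of 0. Rab33b, a Golgi Rab that also binds an autophagy complex, read 6223 and 9657.5 (0.63). Rab6a, which serves transport within and out of the Golgi, read 558.5 and 708 (0.34), within the repeat-spot SD of 0.44, and its neuronal paralog Rab6b read 507.5 and 793 (0.64). Rab43 read 8804.5 and 11382 (0.37), with -0.22 from its other probe. Rab36, a Golgi Rab, was the only member of the group more than 1.5-fold lower, at 548.5 and 337 (-0.70). The 3 members more than 1.5-fold higher were Rab1b, Rab33b and Rab6b. Of all detected genes, 24.1% were at least 1.5-fold higher and 21.0% lower. These 3 and Rab36 all exceeded the repeat-spot SD, and Rab1b alone exceeded the pooled SD. Rab19, Rab30 and Rab33a stayed under the threshold each day.

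The exocytic Rabs held the largest differences toward day 3. Their median was 0.18 over 10 detected genes of 12, with 2 at least 2-fold higher and 1, Rab27b, 2-fold lower as read. Of all detected genes, 12.8% were at least 2-fold higher and 10.3% lower. Rab3a, best known from synaptic vesicles and also part of regulated secretion elsewhere, read 1393 on day 0 and 5008.5 on day 3 (probe mMC025591, gene at chr8:70754703-70758608). It was 3.60-fold higher on day 3, with a difference of 1.85 where the repeat-spot SD was 0.39 and the pooled SD 0.57. The raw intensities were 1150 and 5727, and the authors' table gave 1323 and 4777. Over the 12 settings the difference ran from 1.65 to 1.85.

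Rab3d, the paralog found on secretory granules of exocrine and other cells, moved the same way. It read 314.25 and 840 (probe mMC011148, gene at chr9:21907491-21918199), a 2.67-fold difference of 1.42 against an SD of 0.44 and a pooled SD of 0.78. The range over the settings was 1.29 to 1.55. The other paralogs were undetected, Rab3b at 34.5 and 22.5 and Rab3c at 115.5 and 4, so the 2 detected members of the Rab3 subfamily were both higher on day 3. Because Rab3a is known from neurons, the neural markers are given beside it: 5 of 7 were detected, 1 of them on both days, and their summed signal was 699.5 on day 0 and 1015 on day 3. The markers did not share a direction. Tubb3, a neuronal tubulin gene and the 1 marker above the threshold on both days, went the other way from Rab3a, at 347 and 129.5 (-1.42). Those above it on day 3 alone were Syt1, at least 2.73-fold higher, Syp, at least 1.40-fold, and Map2 and Sox2, at least 1.05-fold and 1.04-fold. Snap25 (54 and 107.5) and Gfap (12 and 19.5) were undetected. The part of such cells in the Rab3a difference was not tested.

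Rab27b and Rab37, both linked to secretory granules, lay at the threshold. Rab27b (probe mMR027581) read 170.5 on day 0 and 11.5 on day 3 and was below the threshold on day 3, so it was at least 1.40-fold lower, and the other probe was undetected. The raw value of 114 on day 0 shows how dim the signal was. Rab37 was below the threshold on day 0 (78.5) and above it on day 3 (150.5), at least 1.23-fold higher. Its difference ran from 0.30 to 1.48 over the 10 settings that detected it, and reached 2-fold in 3 of them. Rab27a, the paralog that docks lysosome-related and secretory organelles at the plasma membrane, read 282 and 277.5, a difference of -0.02.

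The Rabs that carry cargo from the Golgi or recycling endosomes to the plasma membrane differed little by their brightest probes. Rab10 read 15208 and 17526, a difference of 0.20 within the SD of 0.36. Rab8a, which acts in polarized secretion and cilium formation, read 7258 and 5884.5 (-0.30), and the other detected probe gave 0.58. Rab13, a Rab of epithelial junctions, gave 0.45 (191.25 and 261.5) and Rab26 gave 0.15 (125.5 and 139.5), both dim.

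Rab8b was measured by 4 probes that formed separate pairs. The brightest pair read 3768.75 and 3538.5 (mMC013009, -0.09) and 2936 and 2680.5 (mMR031058, -0.13). The dimmer pair read 1166 and 399.5 (mMC004995, -1.55) and 1015 and 335.75 (mMC019398, -1.60). The members of each pair were close to each other, and the 4 differences spanned 1.51 from lowest to highest. No source used here places the probes in the transcript, so no single difference can be stated for Rab8b.

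Endocytic Rabs were the most even group. All 14 detected genes of the early and recycling endosome list, of 15, differed by less than 1.5-fold by their brightest probes, against 54.9% of all detected genes, and the median was 0.03. The largest differences were Rab31 (4825 and 7033, 0.54), which acts between the Golgi and endosomes, Rab15 (296.5 and 429, 0.53) and Rab35 (10541 and 7398, -0.51), which serves fast recycling to the surface. Each exceeded its repeat-spot SD and lay within the pooled SD.

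The paralogs of Rab5, the organizer of early endosomes, did not share a direction. Rab5a read 7914 and 9202.5 (0.22), Rab5c read 11165.25 and 14335.5 (0.36) and Rab5b read 430 and 363.5 (-0.24). Rab5a and Rab5b lay within the repeat-spot SD, and Rab5c was level with its SD of 0.36. The fast-recycling Rab4a (1412 and 1338, -0.08) and Rab4b (1791.5 and 1766.5, -0.02) were nearly level. Of the slow-recycling pair, Rab11a gave 0.46 (2703 and 3721) and 0.12 by its other probe, and Rab11b gave 0.08 (15278.5 and 16103). Rab14, which links Golgi and endosomes, read 31151.5 and 28921.5 by one probe (-0.11) and 6 and 7.5 by the other, so a dim probe here can belong to a gene that another probe reads brightly. The epithelial Rab25 was undetected (19.5 and 77), and Rab17, also of epithelia, straddled it (120.5 and 128.5).

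Rabs of late endosomes, lysosomes and autophagy were detected in 5 cases of 6, with a median of -0.30. In this group 1 gene was at least 2-fold higher and 0 lower, where 12.8% of all detected genes were higher and 10.3% lower. Rab9, which returns receptors from late endosomes to the Golgi, read 5213 on day 0 and 11878 on day 3 by its brightest probe (mMC020652, gene at chrX:166457251-166479867). That difference of 1.19, or 2.28-fold, exceeded the SD of 0.36 and the pooled SD of 0.85. The other probe (mMR028574) read 2484.5 and 2656, a difference of 0.10, so the call rests on the brighter probe and the mean of both gave 0.64. The 2-fold call was also lost, at 0.97 and 0.94, under median scaling over probes above the threshold on both days and with no normalization, both relative to the median of all genes.

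Rab7 directs the fusion of late endosomes and autophagosomes with lysosomes, and its 3 probes disagreed most within the family. The brightest (mMC023976) read 42343 and 34348.5, a difference of -0.30 within its SD of 0.36. The others read 6640.5 and 1354.75 (mMC025049, -2.29) and 5559.5 and 1103.5 (mMR030327, -2.33) and lay close to each other. The mean of all 3 was -1.64. The gene lies at chr6:87999106-88045270, but no source used here gives the positions of the probes, so whether Rab7 as a whole was lower cannot be stated. In the same group Rab24, a Rab of autophagy, was lower by both probes (7068 and 4476, -0.66, and -0.47 by the other). Rab12 read 2713 and 1742 (-0.64), with 0.04 from its other probe, and Rab34, which positions lysosomes and takes part in cilium formation, read 9214.5 and 8604 (-0.10). Rab9b was undetected.

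Disagreement of this size between probes was common on the array. Of 10 Rab genes with more than 1 detected probe, 3 (30.0%) had differences spread over at least 1 on the log2 scale, namely Rab7, Rab8b and Rab9, against 30.8% of 1968 genes with more than 1 detected probe. The probes of Rab28, Rab24, Rab11a and Rab21 agreed in direction, while those of Rab12, Rab43 and Rab8a had opposite signs. Over the array, 706 of the 1968 genes had probes of opposite signs. The dimmer probes of Rab12 (0.04, SD 0.39) and Rab43 (-0.22, SD 0.44) lay within the repeat-spot SD, so their signs are uncertain.

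**Figure D3:**
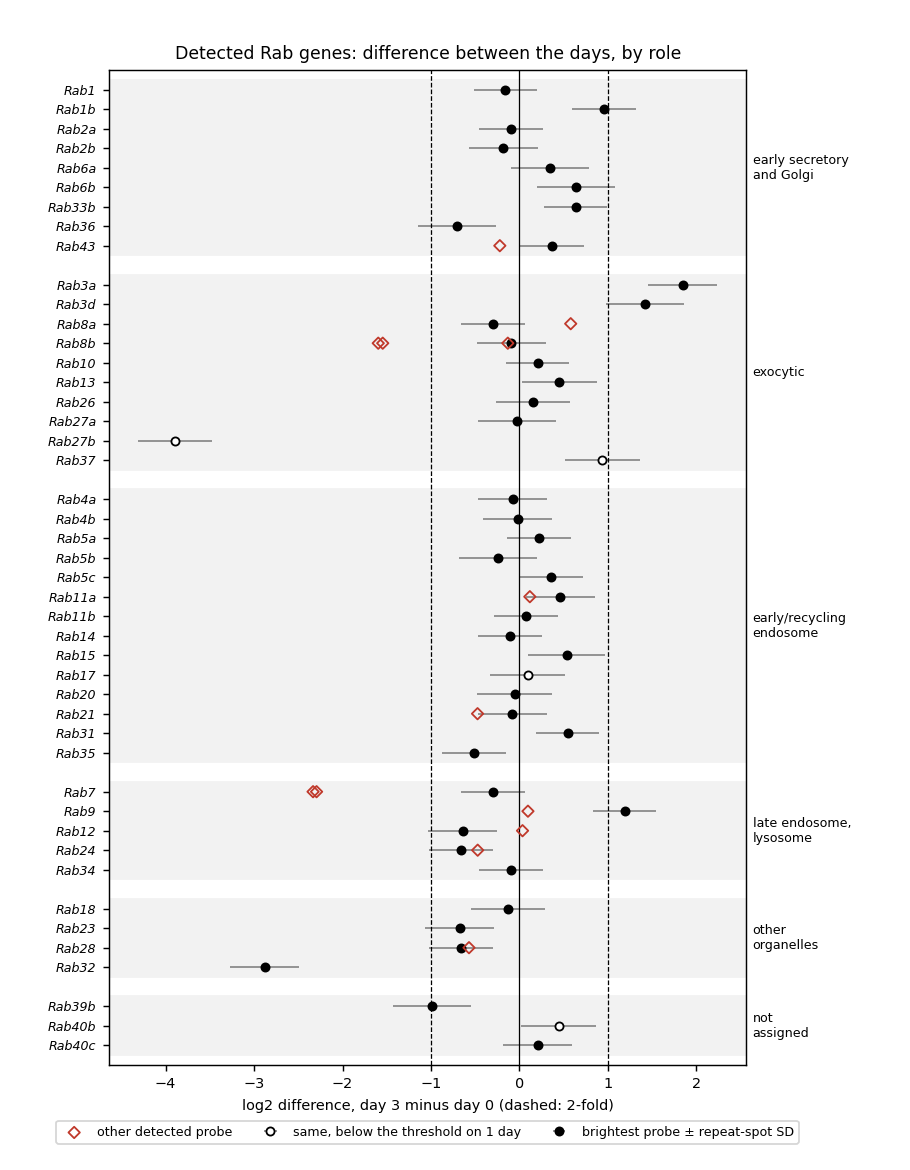
Log2 difference between day 3 and day 0 for the 45 detected Rab genes by role. Filled points are brightest probes above the threshold on both days, open points those above it on 1 day, bars the repeat-spot SD and diamonds the other detected probes. Rab32 stands at -2.88 and Rab3a at 1.85, the endosomal group lies between the dashed 2-fold lines, and both diamonds of Rab7 and 2 of the 3 of Rab8b lie far from their filled points.

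Among the Rabs of other organelles, all 4 detected genes of 5 were lower on day 3, with a median of -0.67. Over the whole array, 5160 of 10656 detected genes were lower. The direction held for Rab32, Rab28 and Rab23 in all 12 settings, whereas Rab18 was above 0 in 3 of the 10 settings that detected it. Rab32 had the largest difference of any Rab gene measured on both days. It read 5850.25 on day 0 and 794 on day 3 (probe mMC007268, gene at chr10:10545039-10558207), 7.37-fold lower. The difference of -2.88 exceeded the repeat-spot SD of 0.39 and the pooled SD of 0.57 and ranged from -3.06 to -2.81 over the settings. The raw intensity was 4992 on day 0 and 955 on day 3, lower on day 3 although the array as a whole was brighter, and the authors' table gave 5575 and 758.

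Rab32 is known for the making of lysosome-related organelles such as melanosomes, together with its paralog Rab38, and for anchoring protein kinase A at mitochondria. Rab38 was undetected (17.5 and 9). Melanocyte markers are given beside Rab32 for that reason: 1 of 6 was detected, Mlana at 168 and 147, and their summed signal was 393 on day 0 and 282 on day 3. The pigment enzyme genes Tyr (12 and 7) and Tyrp1 (7 and 4) were near 0, and Dct (83 and 20), Mitf (75 and 54) and Pmel (48 and 50) were below the threshold. The part of such cells in the Rab32 difference was not tested. The exchange factor of Rab32 and Rab38 is made of Hps1 and Hps4, and these read 586 and 866.5 (0.56) and 587.5 and 671 (0.19). The other Hps4 probe had the opposite sign, at 274.5 and 149.5 (-0.88), so no direction can be given for Hps4.

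The other 3 had smaller differences. Rab28, a Rab of the cilium, was lower by both probes, at 11868.5 and 7526.5 (-0.66) and at -0.57 by the other. Rab23, which restrains hedgehog signalling at the cilium, read 1413 and 884 (-0.68), above its pooled SD of 0.57. Rab18 was dim, at 182.5 and 166.5 (-0.13), and its other probe was below the threshold, so the array gave little information on this lipid droplet Rab.

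Of the 4 genes without an assigned role, Rab39b, known from neurons, read 757.5 and 382.5, a difference of -0.99 just short of 2-fold and above its pooled SD of 0.78 (gene at chrX:75572045-75578231). Rab40c, which recruits a ubiquitin ligase, read 2893.5 and 3339 (0.21). Rab40b crossed the threshold from 92 to 125, at least 1.02-fold, and Rab39 was below it on both days.

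The genes that act on or with Rabs were counted in 4 lists. In the recycling and prenylation list, which holds enzymes and carriers shared by the Rabs, 7 of 8 genes were detected and, by their brightest probes, the 7 differed by less than 1.5-fold, against 54.9% of all detected genes, with a median of 0.17. Zmpste24, a protease gene, was 0.17 by its brightest probe and -0.97 and -0.56 by its others, so the count holds for brightest probes alone. Rabggta and Rabggtb encode the catalytic subunits of the enzyme that prenylates Rabs. Rabggta read 587.5 and 434 (-0.44) and Rabggtb read 20593.5 and 16899.5 (-0.29). Rabac1, a Golgi receptor for prenylated Rabs, gave 0.43 and the methyltransferase gene Icmt 0.38. Gdi2, which extracts Rabs from membranes, gave 0.23 and -0.18 by its other probe, and the escort protein gene Chm gave 0.07.

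Exchange factors went both ways, with 4 of 37 detected genes at least 2-fold higher (10.8%, against 12.8% of all) and 1 lower (2.70%, against 10.3%), and a median of -0.07. Rin2 and Rin1, which both activate Rab5, had the largest differences and opposite signs. Rin2 read 2945.25 and 10829.5 (1.88) and Rin1 read 8909 and 2537.5 (-1.81). Rab3il1, an exchange factor for Rab3a, read 458.5 and 1406 (1.62). Dennd3, which activates Rab12, gave 1.49 (653 and 1833), and the fourth gene, Rabgef1, an activator of Rab5, gave 1.37 (169 and 436).

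Among GTPase activating proteins 3 of 36 detected genes were at least 2-fold higher (8.33%, against 12.8% of all) and 1 lower as read (2.78%, against 10.3%). Their median was 0.22. Tbc1d2, which inactivates Rab7, read 283 and 1680 and was 5.94-fold higher (2.57, SD 0.44). Tbc1d2b (1.10) and Evi5l (1.06) just passed 2-fold, and the 1 lower gene, Tbc1d16, was below the threshold on day 3 (146.5 and 64.5) and so at least 1.20-fold lower, short of 2-fold. Tbc1d4, the insulin-regulated brake on Rab10, was dim (142 and 96, at least 1.16-fold lower, and at least 1.09-fold lower by its other probe). Its relative Tbc1d1 gave -0.39 and -0.72. Rab3gap1, the catalytic subunit that acts on Rab3, gave 0.08.

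Effectors showed 4 of 47 detected genes at least 2-fold higher (8.51%, against 12.8% of all) and 5 lower as read (10.6%, against 10.3%). Their median was 0.08. Rab11fip1, which binds Rab11 on recycling endosomes, read 168 and 811.5 (2.27), whereas the relative Rab11fip2 read 838 and 352.5 (-1.25). Mical1, an enzyme that oxidizes actin and binds several Rabs, read 1063.5 and 4952 (2.22). Exoc6, an exocyst subunit that binds Rab11, was below the threshold on day 3, at its bound 2-fold lower (244.5 and 66). The others at 2-fold were Golga2 (1.16) and Appl2 (1.07) toward day 3, and Sytl2 (-1.10) and Appl1 (-1.04) toward day 0. Rab11fip4, the fifth gene counted as lower, read 127 and 54.5 and was at least 1.04-fold lower, short of 2-fold. The Rab5 effectors Appl1 and Appl2 thus had opposite signs, like Rin1 and Rin2. Rabgef1, Hps1, Hps4, the effectors of this last group, Zmpste24 and the adipocyte, macrophage and leukocyte markers named were chosen after their values were seen.

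**Figure D4:**
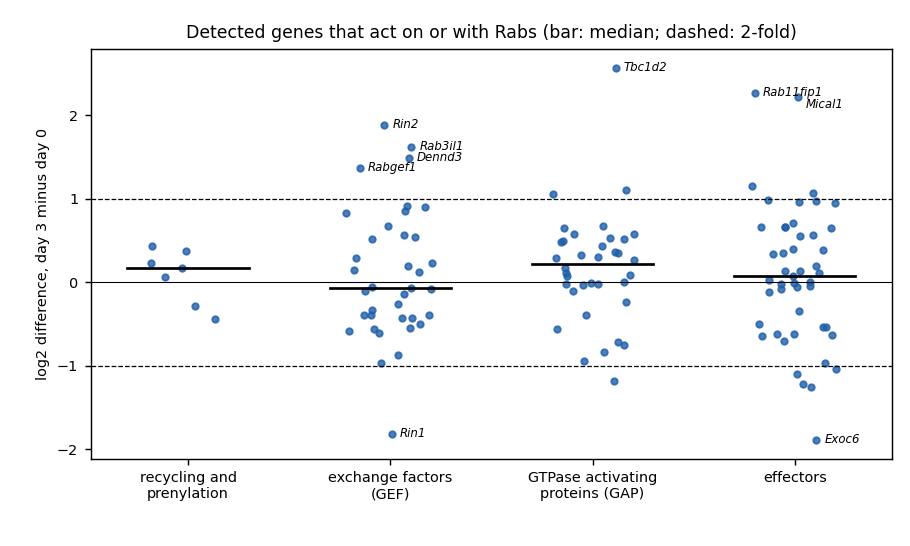
Log2 difference between day 3 and day 0 for each detected gene of 4 lists of Rab regulators and effectors, with the list median as a bar and 2-fold as dashed lines. By their brightest probes, which are plotted, the 7 recycling and prenylation genes stay within 1.5-fold, and single members of the other lists reach 2.57 (Tbc1d2) and -1.89 (Exoc6, as read).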

How the data were processed

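Total RNA was amplified from 1 µg and labelled with Cy5 by Phalanx, per the labels' protocols. The deposited per-sample tables hold 1 linear intensity for each of 39200 spots, with 7402 empty spots near 0 (95th percentile 7 on day 0 and 9 on day 3), so background appears subtracted. No source used here names the scanner or the background method. The authors' series table holds intensity values for 11482 probes and was an alternative.

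Quantile normalization was run over the 29922 gene probes (limma 3.58.1, R 4.3.3), signals under 10 were set to 10, and log2 was taken. Of the probes, 21020 had 1 symbol, 8902 had none and 0 had several. Symbols were updated through a GRCm38.p6 gene table (17558 current, 3410 synonyms, 52 as given, among them Rab1). Below the threshold of 122 on 1 day, a fold is a lower bound against it. No Rab probe was saturated (65000 or more). The steps were tested on simulated data. The number of arrays limits the precision. Members, lists and alternatives were chosen with earlier results of these data known. Every Rab gene may be named, with up to 4 largest differences of each regulator list and a few fixed regulators, 1 of which is not reported here. The promoter motifs were not among the choices fixed at the start. Of the 17 forms searched, 7 are described besides TGACG and its reverse complement, and no counts are given for the rest.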

Additional observations from a re-analysis of the deposited data

How the results depend on the processing

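Under 11 alternatives Rab32 stayed at least 2-fold lower and Rab3a and Rab3d at least 2-fold higher, with no 2-fold difference reversed. The alternatives on probe choice, detection and threshold could not change these genes, each read by 1 probe above the threshold on both days. The number of Rab genes 2-fold higher, 3 in the main setting, was 13 with no normalization as read (35.7% of all genes), 5 with no detection filter (13.4%) and with the threshold at the 95th percentile of empty spots (14.3%), and 7 at 1.5-fold (24.1%). The number 2-fold lower, 2 in the main setting, was 9 under median scaling over all gene probes as read (24.3% of all genes), 4 with no detection filter (10.8%) and with the threshold from empty spots (11.5%), and 8 at 1.5-fold (21.0%). It was 1 in the authors' table, with no normalization (as read or relative to the median of all genes), above the threshold on both days and with low signals set to the threshold, where Rab27b was not counted. The median of -0.02 was -0.48 under median scaling over all gene probes as read (-0.49 over all genes) and 0.63 with no normalization as read (0.67 over all genes). Regulators and effectors 2-fold higher or lower numbered 11 and 7 in the main setting, 6 and 26 under median scaling over all gene probes as read (7.78% and 24.3% of all genes), 40 and 1 with no normalization as read (35.7% and 2.85%), 10 and 3 in the authors' table (9.91% and 8.47%), 11 and 3 with an offset of 50 (9.75% and 8.35%), 11 and 4 above the threshold on both days (10.1% and 8.43%), and 11 and 5 with low signals set to the threshold (10.2% and 8.51%). No paired analysis was possible because each day had 1 sample.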

Other observations

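Further Rab genes stand on the array under older names that the selection by symbol leaves out. Rab29, listed as Rab7l1 and known from lysosome repair and Parkinson disease genetics, read 894 on day 0 and 718 on day 3 (-0.32). Rab7b, which moves cargo from endosomes to the Golgi, read 1687.5 and 1431 (-0.24), and Rab42 was undetected (17.5 and 12). With them the counts of 2-fold genes stayed at 3 higher and 2 lower, over 47 detected genes.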
